A study of Homo sapiens with 10 samples.

Results

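IL31RA, IL6ST, IL6R, OSMR, LIFR, IL27RA and IL12RB1 are receptor genes of the gp130 family of cytokine receptors and its nearest relatives. They were taken by symbol, as the protein-coding rows of these names, and are 7 of the 60603 genes in the expression tables, of which 19975 are protein-coding. RNA was measured by mRNA sequencing in NB4, a human acute promyelocytic leukemia cell line. In the knockdown experiment, cells were transduced with the empty lentiviral vector pLKO.1 puro (EV) or with the same vector carrying shA1 or shB2, hairpins against GSE1, and were collected after 48 h. GSE1 is a chromatin-associated protein found with the histone demethylase LSD1. In the inhibitor experiment, cells were treated for 24 h with DMSO, the solvent, or with MC2580, an LSD1 inhibitor, at 2 µM. Each of the 5 groups held 2 libraries, 10 in all, and the experiments differ in time, in control and in whether the cells were transduced. All groups come from the same cell line, the libraries of a group are biological replicates by the methods, and p-values rest on the spread between them.

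The protein gp130, encoded by IL6ST, is the shared signalling chain of the IL-6 family of cytokines. It pairs with chains that recognise single cytokines, such as IL6R for IL-6, LIFR for leukemia inhibitory factor, OSMR for oncostatin M and IL27RA for IL-27. IL31RA resembles gp130 and pairs with OSMR to bind IL-31, and IL12RB1 is shared by the receptors of IL-12 and IL-23. These receptors activate Janus kinases (JAK), which phosphorylate STAT transcription factors, and SOCS proteins, themselves induced by STATs, dampen the signal. In blood cells, IL6R and IL6ST are carried by many myeloid cells, IL31RA is known from monocytes and macrophages, and OSMR and LIFR are best known from stromal, epithelial and nerve cells.

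The study measured IL31RA by RT-qPCR as well as by sequencing, and the forward primer is shown here because it places that assay on the transcript. In the reference transcript of IL31RA, the MANE Select transcript of 15 exons, the primer lies in coding sequence. It joins the last 12 bases of exon 13 (chr5:55913559-55913570, GRCh38, plus strand) to the first 12 bases of exon 14 (chr5:55914847-55914858), written in capitals, so that it matches spliced RNA and not genomic DNA as 1 run.
IL31RA forward: caaaaaacccaaCAAATTGACTCA

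The promoters of IL6ST, IL12RB1 and IL27RA are shown because these are the other receptor genes that were called, IL6ST and IL12RB1 against EV and IL27RA between the hairpins. Each line holds the 250 bases before the gene's start in RefSeq (GRCh38.p14), 5′ to 3′ on the strand of the gene, which is the minus strand for IL6ST and IL12RB1 and the plus strand for IL27RA. The capitals mark the CCAAT box (CCAAT) and the GC box (GGGCGG) on either strand, common elements of promoters that share no base with each other in these lines. The IL6ST sequence (chr5:55994964-55995213) holds 3 CCAAT boxes and 4 GC boxes, that of IL12RB1 (chr19:18098928-18099177) holds 0 and 2, and that of IL27RA (chr19:14031512-14031761) holds 1 and 1. In windows of the same length, 32% of 35116 promoters hold a CCAAT box and 42.6% hold a GC box.
IL6ST: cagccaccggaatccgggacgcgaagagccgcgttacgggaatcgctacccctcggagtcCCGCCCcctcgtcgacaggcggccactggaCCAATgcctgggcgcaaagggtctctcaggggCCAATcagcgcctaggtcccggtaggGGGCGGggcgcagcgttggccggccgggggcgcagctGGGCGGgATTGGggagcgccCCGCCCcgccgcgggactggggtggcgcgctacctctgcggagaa
IL12RB1: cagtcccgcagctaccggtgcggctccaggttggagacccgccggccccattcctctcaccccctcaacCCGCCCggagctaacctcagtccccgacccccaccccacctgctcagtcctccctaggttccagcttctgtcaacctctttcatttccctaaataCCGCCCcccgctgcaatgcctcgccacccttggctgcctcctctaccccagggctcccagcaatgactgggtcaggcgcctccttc
IL27RA: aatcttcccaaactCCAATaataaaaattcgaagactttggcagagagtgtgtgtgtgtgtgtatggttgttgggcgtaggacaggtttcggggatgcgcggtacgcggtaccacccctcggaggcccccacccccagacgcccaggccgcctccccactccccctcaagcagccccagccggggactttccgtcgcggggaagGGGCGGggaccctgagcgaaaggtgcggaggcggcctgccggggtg

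Sequences related to this pathway were searched for on both strands of the RefSeq windows, which also hold the 50 bases after the start. These were a STAT-type site (TTCNNNGAA), an interferon-response type site (GAAA, any 2 bases, GAAA), a GFI1-type site (AATCAC) and an ETS-type site (GAGGAAGT). A GAA can belong to more than 1 of these patterns, so matches were counted for each on its own. They occur in 7.66%, 3.57%, 10.2% and 2.59% of all promoters. IL31RA has no window in the promoter set used, so its promoter was neither shown nor searched. The windows of IL6ST, IL6R, IL27RA and IL12RB1 hold 0 matches to any of these patterns. That of OSMR holds 1 ETS-type match. LIFR has more than 1 annotated start, and 2 of its windows each hold 1 STAT-type match, 1 of them with 2 GFI1-type matches as well.

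The tables hold no value per library. The level of a gene in each group was therefore worked out from its base mean, the mean normalised count over all libraries of an experiment, and from its fold changes, with a standard error (SE) implied by the deposited ones. A gene was called when its adjusted p-value was under 0.01 and its log2 fold change was over 1 in size, the study's own threshold. An adjusted p-value was given for 5 of the 7 receptor genes in every comparison, and for OSMR and LIFR in none. Of all genes tested, 4.32% were called higher with shA1 than with EV, 5.58% with shB2 than with EV, and 0.587% with MC2580 than with DMSO. Among the receptor genes, 3 rose with shA1 (IL31RA, IL6ST and IL12RB1), 2 with shB2 (IL31RA and IL12RB1) and 1 with MC2580 (IL31RA), and 0 fell. Before adjustment, the Wald p-value fell below 0.05 for 5, 4 and 2 of the 5 tested receptor genes with shA1, shB2 and MC2580. That cutoff was met by 35.3%, 40.4% and 5.77% of all genes tested. Whether the receptor genes stand apart from other genes was not tested. The median log2 fold changes of the tested receptor genes were 1.49, 0.55 and -0.00055. Those of all genes tested were -0.0016, 0.0012 and -0.0012. Both hairpin comparisons share the EV libraries.

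**Figure D1:**
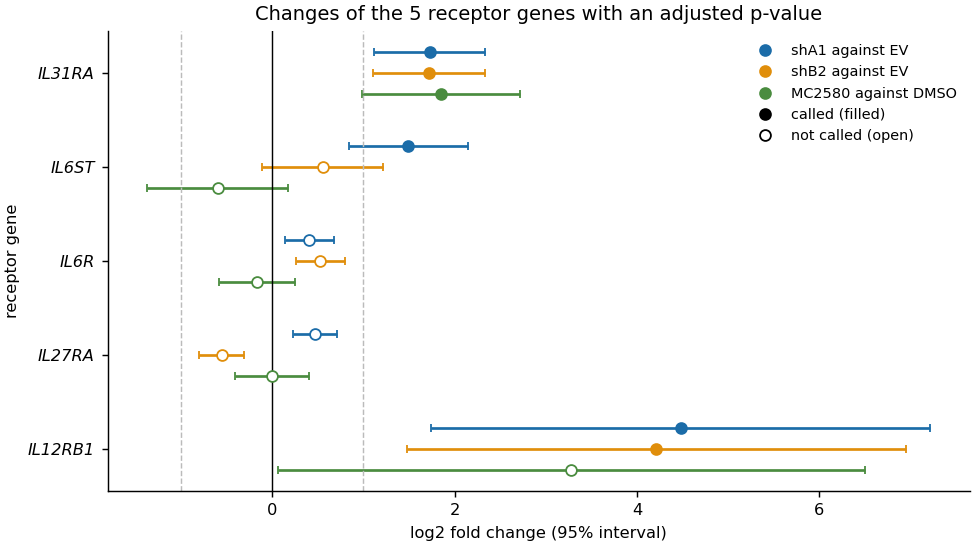
Log2 fold change (horizontal axis) of the 5 receptor genes that have an adjusted p-value (vertical axis) in 3 comparisons, with 95% intervals; filled points are called, open points are not, and dashed lines mark a log2 fold change of 1 in size. IL31RA is filled in all 3 comparisons, IL12RB1 under both hairpins and IL6ST under shA1 alone, and the intervals of IL12RB1 are the widest of the 5.

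IL31RA, the chain that gives the IL-31 receptor its specificity, was the only one of the 5 tested receptor genes called in all 3 comparisons. The share of all genes called in all 3 was not worked out, and the hairpin comparisons share the EV libraries. IL31RA (ENSG00000164509.15) lies at chr5:55851357-55922854 on the plus strand. Its mean level was 70.7 normalised counts a library in EV (60.2 to 83.0 at ± 1 SE), 234 with shA1 (202 to 270.1) and 233 with shB2 (202 to 269). The ranges of both hairpins lie above that of EV and overlap each other almost fully. In the other experiment its level was 50.01 in DMSO (39.9 to 62.6) and 180 with MC2580 (146 to 222), again without overlap of the ranges.
The log2 fold change of IL31RA was 1.73 with shA1 (SE 0.31, adjusted p = 5.60e-07), 1.72 with shB2 (SE 0.31, adjusted p = 3.57e-07) and 1.85 with MC2580 (SE 0.44, adjusted p = 0.00476), which is 3.31-fold, 3.30-fold and 3.60-fold. The changes under the hairpins differed by -0.0046 on the log2 scale, with a 95% interval from -0.87 to 0.86. The interval narrowed to -0.58 to 0.57 when the standard error was computed without the shared EV libraries. The change with MC2580 exceeded that with shA1 by 0.12 (95% interval -0.94 to 1.18) and that with shB2 by 0.13 (-0.93 to 1.19). These intervals leave room for a difference of about the threshold in either direction for MC2580, so likeness of the 3 changes was not shown.

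**Figure D2:**
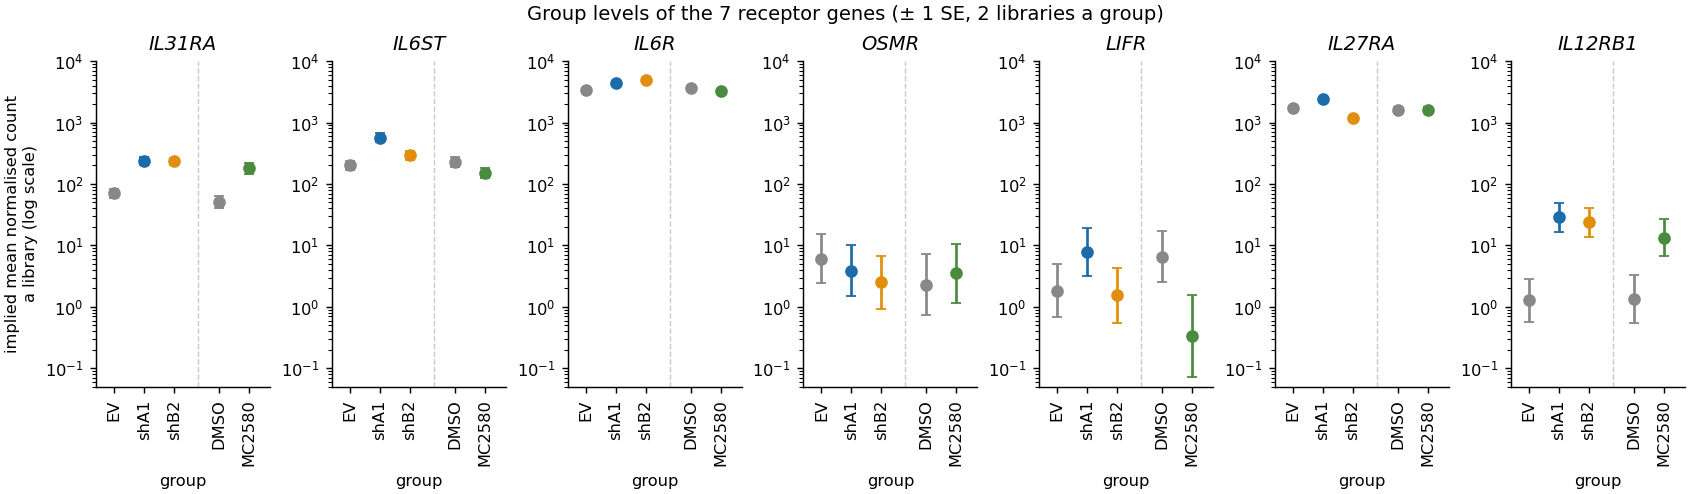
Mean normalised count a library (vertical axis, log scale) of each receptor gene in the 5 groups (horizontal axis), with ± 1 SE from the fit and 2 libraries a group; the dashed line parts the experiments, which were normalised apart. IL31RA and IL12RB1 are lower in EV and DMSO than in the other groups of their experiment, IL6R and IL27RA are at 1190 or more in every group, and OSMR and LIFR at 7.88 or less.

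IL6ST, the gene of gp130, was called with shA1 alone. It lies at chr5:55935095-55995022 on the minus strand (ENSG00000134352.20). Its level was 201 normalised counts in EV (170 to 237 at ± 1 SE), 565 with shA1 (481 to 664) and 295 with shB2 (250.3 to 347). The shA1 range lies above both others, and the shB2 range starts above the top of the EV range. In the inhibitor experiment the order was the other way round, with 227 in DMSO (187 to 275) and 150 with MC2580 (123 to 182).
The log2 fold change of IL6ST was 1.49 with shA1 (SE 0.33, adjusted p = 8.65e-05), 0.55 with shB2 (SE 0.34, adjusted p = 0.217) and -0.60 with MC2580 (SE 0.40, adjusted p = 1.00). With shA1 the gene thus stood 2.81-fold above EV. The hairpins were not called different: shB2 minus shA1 was -0.94 (95% interval -1.87 to -0.0072, adjusted p = 0.249, where the standard error is an upper bound). Computed without the shared EV libraries, the same difference had an adjusted p of 0.0247, which is also above 0.01. The change with MC2580 lay 2.09 below that with shA1 on the log2 scale (difference -2.09, SE 0.52, adjusted p = 0.00324), past the threshold, and differed from that with shB2 by -1.15 (SE 0.52, adjusted p = 0.152), not past it.

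IL31RA and IL6ST are neighbours that point at each other, with 12240 bases between their ends. The next protein-coding gene beyond IL31RA is DDX4, a germ cell helicase, with base means of 0.60 in the knockdown and 0.15 in the inhibitor experiment. Beyond IL6ST lies ANKRD55, at a distance of 104657 bases, whose log2 fold changes were -0.030 (SE 0.21), -0.016 (SE 0.21) and -0.25 (SE 0.30) with shA1, shB2 and MC2580. ANKRD55 was called in none of the 3 comparisons, and DDX4 had no adjusted p-value. The lncRNA ENSG00000262211 runs opposite to IL6ST and shares 797 bases of exon with it, 6.61% of the exon length of IL6ST. The library kit does not mark strand, so reads from that stretch cannot be told apart, and the lncRNA has a base mean of 10.8 against 354 for IL6ST. IL6STP1, the processed pseudogene of IL6ST, was listed at a base mean of 0.13 in the knockdown and 0 in the inhibitor experiment.

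IL6R, the chain that binds IL-6 before gp130 does, was among the more abundant of the 7 genes and was called in none of the 3 comparisons. It lies at chr1:154405193-154469450 on the plus strand (ENSG00000160712.13). Its level was 3379 normalised counts in EV (3160 to 3613 at ± 1 SE), 4477 with shA1 (4189 to 4786) and 4869 with shB2 (4556 to 5205). Both hairpin ranges lie above that of EV and overlap each other. The levels of 3597 in DMSO (3242 to 3992) and 3204 with MC2580 (2887 to 3556) overlap too.
The log2 fold change of IL6R was 0.41 with shA1 (SE 0.14, adjusted p = 0.0139), 0.53 with shB2 (SE 0.14, adjusted p = 5.90e-04) and -0.17 with MC2580 (SE 0.21, adjusted p = 1.00). With no demand on the fold, 19.3% of all genes tested passed an adjusted p-value of 0.01 with shA1 and 26.3% with shB2, in either direction, and IL6R passed with shB2 at 1.44-fold. The change with MC2580 differed from that with shB2 by -0.69 (SE 0.25, adjusted p = 0.0526), which did not pass. The neighbour SHE lies on the minus strand, and its own end is 321 bases past the end of IL6R. IL6R-AS1 shares 0 bases of exon with IL6R.

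IL27RA, the IL-27 chain that pairs with gp130, moved in opposite directions under the hairpins. It lies at chr19:14031762-14053218 on the plus strand (ENSG00000104998.4). Its level was 1749 normalised counts in EV (1645 to 1859 at ± 1 SE), 2415 with shA1 (2274 to 2566) and 1190 with shB2 (1119 to 1267), and no ranges overlap. In DMSO and with MC2580 its levels were 1629 and 1628.
The log2 fold change of IL27RA was 0.47 with shA1 (SE 0.12, adjusted p = 0.00125), -0.55 with shB2 (SE 0.13, adjusted p = 7.03e-05) and -0.00055 with MC2580 (95% interval -0.41 to 0.41). Both hairpin values passed the adjusted p-value and neither passed the fold. The difference between the hairpins did pass: shB2 minus shA1 was -1.02 (SE 0.18 as an upper bound, adjusted p = 4.58e-07), so that the level with shA1 was 2.03-fold that with shB2. IL27RA was the only one of the 5 tested members called in that comparison, against 3.03% of all genes tested. The RNA of GSE1 itself stood at 4102 normalised counts in EV, 2407 with shA1 and 2380 with shB2. For the protein, the study's western blots at a later time showed stronger depletion with shB2 than with shA1. Whether either bears on IL27RA was not tested.

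**Figure D3:**
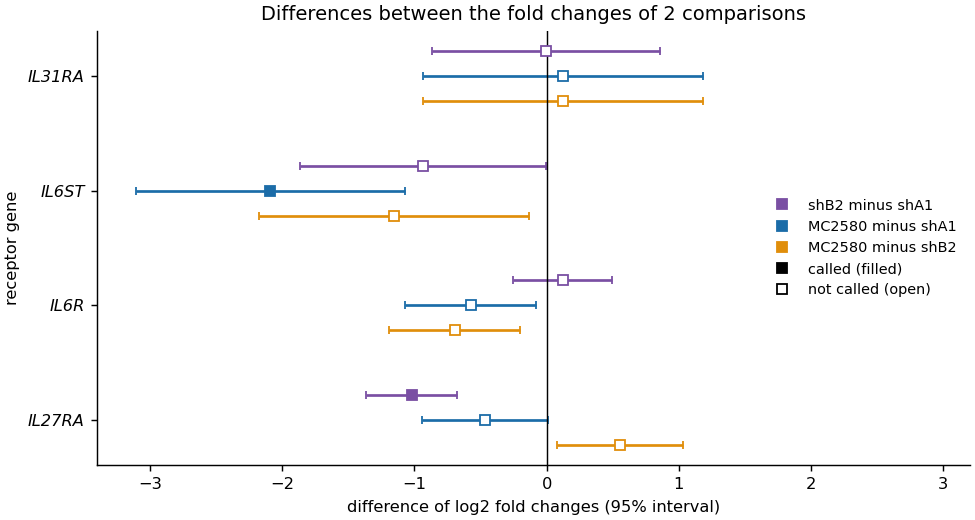
Difference between the log2 fold changes of 2 comparisons (horizontal axis, 95% interval) for the receptor genes other than IL12RB1 that have an adjusted p-value (vertical axis), where shB2 minus shA1 uses the upper bound of its standard error; filled squares are called. The filled squares are IL27RA for shB2 minus shA1, at -1.02, and IL6ST for MC2580 minus shA1, at -2.09, and the 3 squares of IL31RA lie within 0.13 of 0.

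IL12RB1, the chain shared by the IL-12 and IL-23 receptors, was near the floor in both control groups and was called under both hairpins. It lies at chr19:18058995-18098944 on the minus strand (ENSG00000096996.15). Its level was 1.28 normalised counts a library in EV (0.57 to 2.88 at ± 1 SE), 28.6 with shA1 (16.8 to 48.7) and 23.8 with shB2 (14.0 to 40.6). It was 1.37 in DMSO (0.56 to 3.36) and 13.3 with MC2580 (6.62 to 26.6). The ranges of all treated groups lie above those of their controls, but the controls rest on 2.57 and 2.73 counts over 2 libraries.
The ratio of shA1 to EV for IL12RB1 was 4.48 on the log2 scale (95% interval 1.74 to 7.22, adjusted p = 0.00741) and that of shB2 to EV was 4.21 (1.47 to 6.95, adjusted p = 0.00977), both just inside the threshold of 0.01. When the adjustment took in every gene with a p-value, these became 0.0149 and 0.0182, and both calls were lost. With MC2580 the log2 ratio was 3.28 (0.061 to 6.50), with an unadjusted p of 0.0458 and an adjusted p of 0.832. The difference of the hairpins was -0.27, and its interval from -2.40 to 1.86, without the shared EV libraries, spans the threshold in both directions. MAST3 overlaps the first part of IL12RB1 from the other strand, shares 0 bases of exon with it, and had log2 fold changes of 0.72, 0.50 and 0.059 with shA1, shB2 and MC2580.

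OSMR, the partner of IL31RA in the IL-31 receptor, and LIFR, the receptor chain for leukemia inhibitory factor, were near the floor of these data. OSMR (ENSG00000145623.13, chr5:38845858-38945596, plus strand) had 6.09 normalised counts a library in EV, 3.89 with shA1, 2.50 with shB2, 2.29 in DMSO and 3.51 with MC2580. LIFR (ENSG00000113594.10, chr5:38474668-38608354, minus strand) had 1.83, 7.88, 1.54, 6.52 and 0.33 in the same order. Within each experiment the ± 1 SE ranges of OSMR overlap for every pair of groups, and those of LIFR for every pair except DMSO and MC2580, where the unadjusted p was 0.0996. The replicate coefficient of variation implied by the fit was 123% for OSMR and 121% for LIFR in the knockdown. Neither gene thus had a test that could be called, and the 95% intervals of their log2 fold changes were wide, for shA1 against EV from -4.38 to 3.08 for OSMR and from -1.68 to 5.89 for LIFR. The genes lie 237503 bases apart on chromosome 5. OSMR shares 229 bases of exon with RICTOR on the other strand, 3.19% of its exon length, and RICTOR had a base mean of 1430 in the knockdown, so part of the few OSMR reads cannot be told from it. LIFR shares 629 bases with LIFR-AS1, 5.17% of its exon length, whose base mean was 0.22.

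Per kilobase of exon, the control level of the 7 genes spanned a wide range. In EV, IL27RA led with 593 normalised counts a kilobase, followed by IL6R with 483, IL6ST with 16.7, IL31RA with 6.18, OSMR with 0.85, IL12RB1 with 0.30 and LIFR with 0.15. Among 12899 protein-coding genes with an adjusted p-value, IL27RA stood at percentile 76.9, IL6R at 72.9, IL6ST at 18.2 and IL31RA at 10.8. The log2 ratio of IL27RA to IL6R was 0.30 (95% interval 0.039 to 0.55) from the fit alone, and the lengths used for each gene add an error that these data do not give. From OSMR down, neighbours in the order could not be told apart, since the interval of OSMR to IL12RB1 ran from -1.96 to 4.96 on the log2 scale. With shB2 the leading pair changed places, at 696 for IL6R and 404 for IL27RA.

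The rest of the pathway was described with a list of 58 genes, of which 47 had an adjusted p-value with shA1, 49 with shB2 and 48 with MC2580. With shA1, 6 rose and 0 fell, with shB2, 5 rose and 3 fell, and with MC2580, 1 rose and 0 fell, which is 12.8%, 16.3% and 2.08% of the genes of the list that were tested. Over all genes tested, 5.1%, 8.49% and 0.604% were called in either direction. The median log2 fold change of the tested genes was 0.27, 0.25 and 0.039. In all, 12 genes were called in at least 1 comparison.

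Of the 13 ligands on the list, 7 were tested. EBI3, the subunit that IL-27 shares with IL-35, rose with shA1 from 27.2 to 129 normalised counts (log2 fold change 2.24, SE 0.57, adjusted p = 6.15e-04), with values of 1.48 with shB2 (adjusted p = 0.0313) and 0.087 with MC2580. The mRNA of IL-31 was listed at base means of 0.15 and 0, and that of IL-6 at 0 in both experiments. IL27, the partner of EBI3 in IL-27, had base means of 0.50 and 0.73. Of the 8 other receptor chains and soluble partners, only 4, 5 and 4 were tested with shA1, shB2 and MC2580, and 0 were called. Over all genes tested, 5.1%, 8.49% and 0.604% were called in either direction.

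Among 8 kinases and transcription factors, 0 were called in any of the 3 comparisons, where 4, 7 and 2 had an unadjusted p-value under 0.05 in the DESeq2 Wald test with shA1, shB2 and MC2580, beside 35.3%, 40.4% and 5.77% of all genes tested. Of these 8 genes, 7, 8 and 8 were tested, which is few, and whether the group stands apart from other genes was not tested. At an adjusted p-value under 0.01 with any fold, 2 of them rose with shA1, and 5 rose and 1 fell with shB2. Of all genes tested, 19.3% and 26.3% passed this in either direction. STAT3, the main STAT downstream of gp130, had 0.13 with shA1, 0.63 with shB2 (adjusted p = 4.84e-08, under the fold threshold) and -0.14 with MC2580.

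The feedback inhibitors SOCS1 and SOCS3 were called with shA1, at log2 fold changes of 1.73 (SE 0.36, adjusted p = 2.12e-05) and 1.76 (SE 0.51, adjusted p = 0.00344). With shB2, SOCS1 rose by 2.46 (SE 0.36, adjusted p = 1.19e-10), and SOCS3 had 1.22 (SE 0.51, adjusted p = 0.0511). SOCS3 is the inhibitor that binds gp130 itself. PTPN11, the gene of the phosphatase SHP2 that docks on gp130, fell with shB2 by 1.58 on the log2 scale (SE 0.092, adjusted p = 7.04e-63), against -0.23 with shA1, a difference of -1.35 (adjusted p = 1.29e-22). ADAM17, the protease that sheds IL6R from the cell surface, had 0.78 with shA1 and -0.71 with shB2, and the difference of -1.49 had an adjusted p of 1.28e-11. ADAM10, another sheddase of IL6R, had 0.77 and -0.40, with a difference of -1.16 (adjusted p = 3.39e-07).

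Of 16 genes known to respond to STAT3, all 16 were tested. BCL3, a regulator of NF-kB, and PIM1, a kinase that supports survival, rose with both hairpins, BCL3 by 1.61 and 1.11 and PIM1 by 1.15 and 1.49 on the log2 scale with shA1 and shB2. IRF1, a transcription factor of interferon responses, rose with shA1 (1.17, adjusted p = 3.19e-21) and had -0.072 with shB2, a difference of -1.24 (adjusted p = 1.82e-11). BCL6, a transcriptional repressor, and FGL1, a secreted acute-phase protein, rose with shB2 by 2.13 and 1.69. MYC, a driver of proliferation, and CEBPD, a myeloid transcription factor, fell with shB2 by 1.44 and 2.20 on the log2 scale, and had -0.85 and -0.66 with shA1. By the Wald test, shB2 minus shA1 was also called for CEBPD (-1.55, adjusted p = 7.00e-11) and FGL1 (2.39, adjusted p = 0.00501). For MYC it was -0.59 (adjusted p = 0.00717), under the fold threshold. Of all genes tested, 3.03% were called between the hairpins. With MC2580, FOS, an immediate early gene, was the one called, at 1.85 (SE 0.42, adjusted p = 0.00197), against -0.052 with shA1 and -1.43 with shB2.

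**Figure D4:**
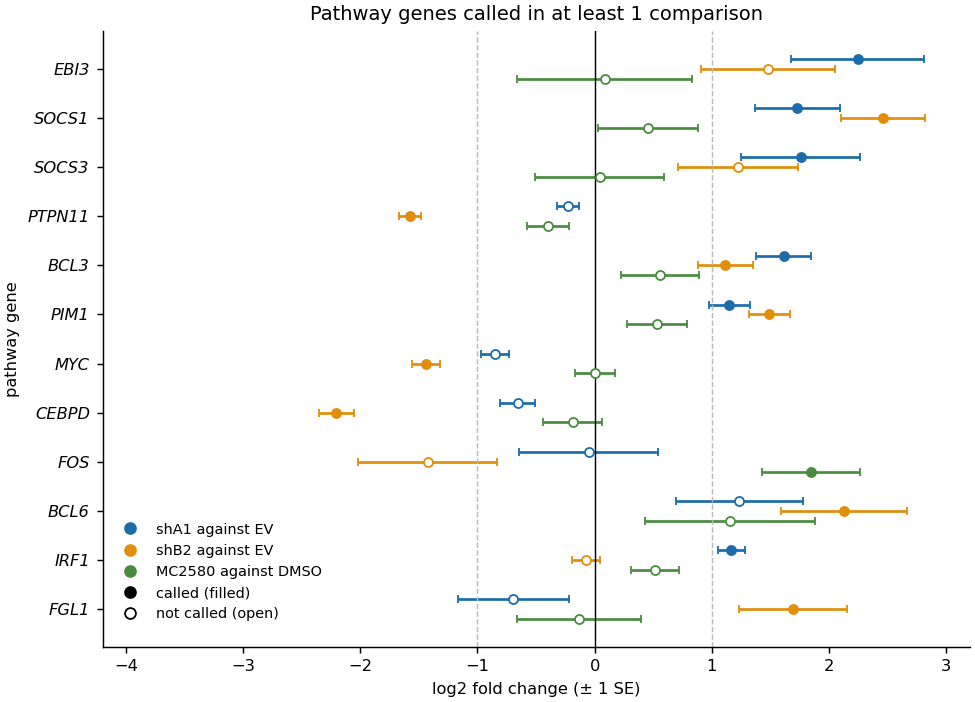
Log2 fold change (horizontal axis, ± 1 SE) of the 12 genes of the pathway list (vertical axis) that were called in at least 1 comparison; filled points are called and dashed lines mark 1 in size. EBI3, SOCS3 and IRF1 are filled for shA1 alone, PTPN11, MYC, CEBPD, BCL6 and FGL1 for shB2 alone, SOCS1, BCL3 and PIM1 for both hairpins, and FOS for MC2580 alone.

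Taking MC2580 against each hairpin, 331 of 16495 genes (2.01%) were called different from shA1 and 783 of 17378 (4.51%) from shB2. Among the 5 tested receptor genes, IL6ST was called against shA1 and 0 were called against shB2. By the same Wald test, 3 of the 7 receptor genes had an unadjusted p-value under 0.05 in each of these comparisons. Those against shA1 included LIFR, which has no adjusted p-value. The share of all genes under that unadjusted cutoff was not worked out for either comparison, so nothing is drawn from these counts. These differences set fold changes from fits that share no library, and the time, the control and the transduction differ between them as well as the agent, so their parts cannot be told apart.

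The genes most like IL31RA across the 3 comparisons were found among 10915 protein-coding genes averaging 50 or more normalised counts in each experiment, by Euclidean distance over the log2 fold changes. They were CKAP4 (distance 0.44), TLR1 (0.47), MYO1C (0.49), SLC4A8 (0.52) and RTN4RL2 (0.52). CKAP4, a protein of the endoplasmic reticulum, had log2 fold changes of 1.41, 1.77 and 2.16 with shA1, shB2 and MC2580, and RTN4RL2, a receptor on the cell surface, had 1.22, 1.60 and 1.80, each called in all 3 comparisons. TLR1, a receptor for bacterial lipopeptides, was called with both hairpins and had an adjusted p of 0.0875 with MC2580. MYO1C passed with MC2580 (adjusted p = 5.43e-05) and SLC4A8 in none. When distance was taken over Wald statistics, 0 of these 5 genes were among the nearest 5.

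The cells carried promyelocytic markers as labelled, with base means from 723 for AZU1 to 506765 for MPO in the knockdown, except ELANE, at 1.10. Of these 6 markers, 2 fell with shA1 (CTSG and PRTN3) and 2 with shB2 (AZU1 and PRTN3), and 0 were called with MC2580. Of all genes tested, 5.1%, 8.49% and 0.604% were called in either direction. With shA1 and shB2, MPO had log2 fold changes of -0.73 and -0.92 and CD33 had 0.26 and 0.43, all under the fold threshold. Markers of other cells were not all near 0: CD3D had a base mean of 866, EPCAM of 432 and CD79A of 121 in the knockdown, while CD3E, KRT5 and KRT14 were at 1.55 or less. Of the 5 stromal and endothelial markers, PECAM1, also known from myeloid cells, rose with both hairpins (log2 fold changes 1.94 and 1.61), as IL31RA and IL12RB1 did. The summed level of these 5 markers was 788 in EV, 3019 with shA1 and 2411 with shB2. PECAM1 alone made up 779, 2988 and 2378 of these sums, and no other marker of the 5 was called. COL3A1 and CDH5 had base means of 1.07 and 0.16. Of the 3 T cell markers, CD3D fell and CD2 rose with shB2. Their summed levels were 1097, 1059 and 485 with EV, shA1 and shB2. CD3D alone made up 1095, 1056 and 447 of these. In the B cell, erythroid and epithelial lists, 0 markers were called. The part of these differences in the receptor results was not tested. In bulk RNA, more cells that carry a receptor and more RNA in each cell cannot be told apart. GSE1 had log2 fold changes of -0.77 (SE 0.13) with shA1, -0.79 (SE 0.14) with shB2 and 0.068 (SE 0.20) with MC2580, and KDM1A, the gene of LSD1, had -0.027, 0.034 and -0.053. These values are of RNA. The study reported that MC2580 lowered GSE1 protein while its transcript did not change significantly.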

How the data were processed

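mRNA-seq of NB4 cells was analysed from 2 deposited tables, which hold the comparisons and base means but no value per library. Per the labels and the study's methods, the authors prepared libraries with TruSeq v2, mapped reads to hg38 with STAR 2.7 and quantified genes with RSEM and tested them with DESeq2, both with versions not given in the sources used here. The labels write MC280 in titles and MC2580 as the treatment, taken here as 1 compound. The log2 fold changes, their standard errors, the score values (Wald statistics) and the p-value columns (raw, and adjusted by Benjamini-Hochberg) were made by the authors and are used here as deposited, since no test over libraries can be run on these tables. The deposited signal values, base means, are the authors' means of counts divided by size factors. Depth per library is unknown here, so precision is given by standard errors alone.

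Group levels were solved from base mean and fold changes, and the dispersion from the shA1 standard error. Predicting the shB2 standard error from it gave a median ratio to the deposited one of 0.998 over 16673 genes. Differences of log2 fold changes were tested with a two-sided Wald test and Benjamini-Hochberg adjustment over all genes tested in both comparisons. For shB2 against shA1 the standard error is an upper bound, since EV is shared, and the one without EV is given beside it. On simulated counts for 16590 genes, 200 were changed by 4-fold between the hairpins. Of these, 163 were called with the upper bound and 182 without EV, and 0 and 1 of the others. The simulation was given the true dispersions and changed only genes averaging 50 or more normalised counts. It therefore does not cover dispersions estimated from 2 libraries a group, smaller changes or changes at lower counts.

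Of 60603 identifiers, 60306 matched GENCODE release 44 (GRCh38), used for positions and exon lengths. Promoters came from RefSeq, and the primer from the study's primer list. Of the fixed lists, 1 pathway gene and 1 marker are not reported here, and the pathway genes that are not named enter the counts. Calls needed a log2 fold change over 1 in size and an adjusted p-value under 0.01. The text names the 7 receptor genes, their neighbours and the pseudogene of IL6ST, GSE1 and KDM1A, pathway genes called at least once and the 5 genes nearest to IL31RA by fold change; other pathway genes named for their role and the markers were named after their values were seen. The members and lists were chosen with earlier results of these data known, and the study itself names IL31RA among its responsive genes. Intervals are at 95%. Python 3.11.15, pandas 2.3.3 and scipy 1.17.1 were used.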

Additional observations from a re-analysis of the deposited data

Results flagged for a closer look

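A pair of receptor results differed between comparisons by a test of the difference itself. The log2 fold change of IL27RA with shB2 lay 1.02 below that with shA1 (difference -1.02, SE 0.18 as an upper bound, adjusted p = 4.58e-07, Wald test over 16673 genes), and without the shared EV libraries the adjusted p was 2.04e-14. The log2 fold change of IL6ST with MC2580 differed from that with shA1 by -2.09 (SE 0.52, adjusted p = 0.00324), across experiments that also differ in time, control and transduction. With 2 libraries a group, no library could be examined as standing apart from its group.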

How the results depend on the processing

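An adjusted p-value under 0.05, or protein-coding genes only in the adjustment, each gave 30 single-gene results of the receptor genes. All of these kept their side of the threshold. Without a fold threshold, called receptor genes rose to 4 with shA1 and 4 with shB2. Pathway genes rose to 16 of 47 tested with shA1 and 24 of 49 with shB2. Of all genes tested, 19.3% with shA1 and 26.3% with shB2 passed at this setting. With a log2 fold change over 2 in size, receptor genes fell to 1 with shA1, 1 with shB2, 0 with MC2580 and 0 for shB2 against shA1. Pathway genes fell to 1, 3 and 0 with shA1, shB2 and MC2580. The share of all genes past that fold was not worked out. For shB2, 1 receptor gene, IL31RA, was left when adjusting over every gene with a p-value and also when adjusting over genes that average 50 or more normalised counts, where IL12RB1 is not tested. Per kilobase of the longest transcript, the EV levels were 8.58 for IL31RA, 22.3 for IL6ST and 586 for IL6R. By Wald statistics, 0 of the genes nearest to IL31RA were shared. No paired analysis was possible because the tables hold no values per library, and leaving out each replicate was not run for the same reason. Every setting for the calls used the same deposited log2 fold changes, so the direction of a result could not change. OSMR and LIFR are limited by counts of at most 7.88 a library, and IL12RB1 by its control counts.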
